A study of Naumovozyma castellii with 24 samples.

Results

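Heat shock protein 90 (HSP90), its partners and other molecular chaperones were followed across 24 RNA-seq libraries of the budding yeast Naumovozyma castellii. The 7 genes were chosen by symbol, of 5648 genes counted, and each was found by its locus tag. They were HSC82 (NCAS0D03870), AHA1 (NCAS0B02850), STI1 (NCAS0G00810), SSA2 (NCAS0C05760), HSP104 (NCAS0A02890), HSP26 (NCAS0A10710) and HSP10 (NCAS0G00860). They were picked with results of these libraries known. HSC82 and HSP10 were picked for hypoxia, and SSA2, HSP104 and HSP26 for CoCl2 in WT. The choice of HSC82, AHA1 and STI1 was taken to rest on rox1/rox2 against rox2 without CoCl2 and on the interaction of both deletions. Comparisons that share libraries with the one that chose a gene are given as values without a p-value for that gene.

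Chaperones help other proteins to fold, and yeast transcribes many of them at higher levels under heat and other stress. In S. cerevisiae, HSP90 is a dimer that matures kinases, receptors and other client proteins. The co-chaperone Sti1 bridges it to the HSP70 that hands clients over, and Aha1 speeds its ATP hydrolysis. Hsp104 is a ring-shaped machine that pulls proteins out of aggregates, working with HSP70 and with small heat shock proteins such as Hsp26, which bind unfolding proteins. Hsp10 is the lid of the mitochondrial Hsp60 folding chamber. In S. cerevisiae, the factor Hsf1 drives many chaperone genes, and Msn2 and Msn4 drive a general stress programme that includes HSP104 and HSP26.

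The deletion experiment asked how 2 regulator genes, ROX1 and ROX2, and the cobalt salt CoCl2, which imitates oxygen shortage in many cells, act on transcript levels. Strains of the DBP004 background deleted for both genes (rox1/rox2), for ROX1 (rox1) or for ROX2 (rox2), and the wild type (WT), were grown in YPD at 30°C and 21% oxygen to an A600 of 1 and then for 2 h with 0.6 mM CoCl2 or without it. Without CoCl2, rox2 and WT had 3 libraries each and the other strains had 2, and every group with CoCl2 had 2. The oxygen experiment compared WT after 6 h at 1% oxygen (hypoxia) with WT after 6 h at 21% oxygen (normoxia), with 3 libraries each. The labels give no clone numbers and do not say whether the libraries of a group came from separate cultures, so p-values measure the spread between libraries, which may be technical.

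The libraries held 5585196 to 12738873 gene counts in the deletion experiment and 11993105 to 12181501 gene counts in the oxygen experiment. ROX1 had 0 or 1 count in all libraries labelled as lacking it and 107 to 392 counts in the others. The annotation names no locus as ROX2, so that deletion was not checked. Reads outside genes were 14.5 per 100 in rox2 replicate 3 and 19.9 per 100 in rox2 CoCl2 replicate 1, against 4.52 to 10.1 in the other libraries of the deletion experiment, so the main results on rox2 are given also without this pair. Levels below are in CPM, the counts of a gene relative to the library size after scaling by the trimmed mean of M-values. Fold changes are on the log2 scale with their standard error, and a gene is called at an adjusted p under 0.05 in edgeR's quasi-likelihood test over all genes.

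None of the 7 genes overlapped another annotated gene. In untreated WT, SSA2 had the highest level per kilobase of coding sequence among them, with 3207 ± 211 CPM per kb (SD, n = 3). HSP10 had 837 ± 5.37 and HSC82 781 ± 49.9 CPM per kb (SD, n = 3 each). AHA1, STI1, HSP104 and HSP26 followed with means of 283, 235, 39.6 and 14.0 CPM per kb. The counts left out reads that matched several places, which lowers the counts of near-identical copies. The level of SSA2, which has the paralog SSA3, is uncertain for that reason, and HSP82, SSA1 and SSA4 were not matched to a locus in the annotation.

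Without CoCl2, HSC82, AHA1 and STI1 had their highest means in rox1/rox2 and their lowest in rox2. HSC82, the HSP90 gene, had 3117 and 3074 CPM in rox1/rox2, 1895 and 1557 CPM in rox1, 754, 687 and 912 CPM in rox2, and 1755, 1546 and 1683 CPM in WT. The libraries of rox1/rox2 were above and those of rox2 below all other untreated libraries, while rox1 and WT overlapped. The difference of rox1/rox2 from rox2 was 1.98 ± 0.295 on the log2 scale, or 3.95-fold.

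AHA1, which encodes the activator of the HSP90 ATPase, had 576 and 562 CPM in rox1/rox2, 322 and 255 CPM in rox1, 115, 134 and 145 CPM in rox2, and 295, 276 and 329.5 CPM in WT. STI1, which encodes the HSP70-HSP90 bridge, had 755 and 793 CPM in rox1/rox2, 330.3 and 370.0 CPM in rox1, 242, 233 and 235 CPM in rox2, and 421, 378 and 439 CPM in WT. Both ordered the strains as HSC82 did, except that both rox1 libraries were below all WT libraries for STI1. The log2 difference of rox1/rox2 from rox2 was 2.11 ± 0.250 for AHA1 and 1.71 ± 0.224 for STI1. The differences of these 3 genes lay between 1.71 and 2.19 without the rox2 pair of libraries with most reads outside genes.

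SSA2, a cytosolic HSP70, showed the same order. It was chosen for CoCl2 in WT, a comparison that holds the untreated WT libraries, so its place relative to WT is not free of that choice. The untreated rox1/rox2, rox1 and rox2 libraries did not enter it. SSA2 had 7957 and 7933.5 CPM in rox1/rox2, 7342 and 5442 CPM in rox1, 3391, 3022 and 3156 CPM in rox2, and 6102, 5798 and 6603 CPM in WT. Its log2 difference of rox1/rox2 from rox2 was 1.32 ± 0.229 (edgeR adjusted p = 0.0118). Both rox1/rox2 libraries were above all rox2 libraries, as for 24.7% of all genes. The call was lost without rox1/rox2 replicate 1 (adjusted p = 0.129) or replicate 2 (adjusted p = 0.136), at nearly the same size, and held without that rox2 pair of libraries (1.31, adjusted p = 0.0168). In this comparison 2.24% of all 5544 genes tested were called, and 4 of the 7 genes were called, of which HSC82, AHA1 and STI1 were chosen on it.

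**Figure D1:**
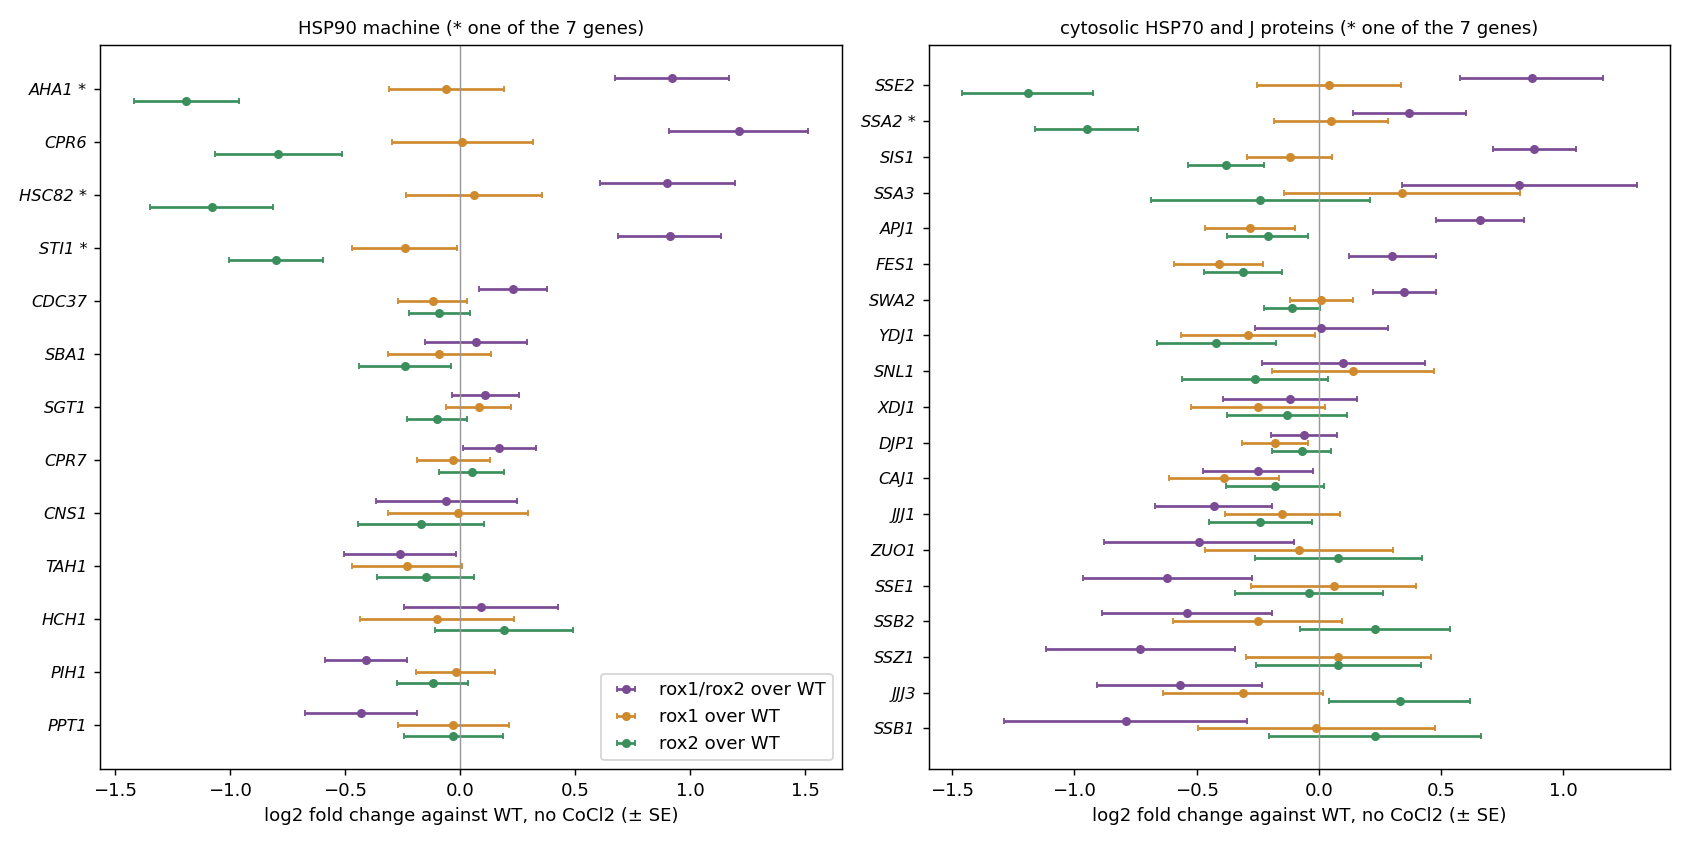
Log2 fold changes over WT without CoCl2 (horizontal axis, points with standard errors) in rox1/rox2, rox1 and rox2 for the HSP90 machine (left) and for cytosolic HSP70 and J proteins (right), ordered by the difference of rox1/rox2 from rox2. HSC82, AHA1, STI1, CPR6, SSE2 and SSA2 lie above WT in rox1/rox2 and below it in rox2, while the rox1 points of these genes lie within 0.25 of WT.

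Set against WT, the deviations of each strain were smaller and none passed the test. In rox2, the log2 difference from WT was −1.08 ± 0.269 for HSC82, −1.19 ± 0.228 for AHA1, −0.80 ± 0.204 for STI1 and −0.95 ± 0.210 for SSA2, with all 3 rox2 libraries below all 3 WT libraries for each gene. These differences lay between −1.27 and −0.80 without the rox2 pair of libraries. Over all genes, 11.8% had libraries that were all lower in rox2, and 0.0722% were called in rox2 against WT. In rox1/rox2, the log2 difference from WT was 0.90 ± 0.293 for HSC82, 0.92 ± 0.248 for AHA1, 0.91 ± 0.223 for STI1 and 0.37 ± 0.231 for SSA2, again without overlap, which held for 35% of all genes in that direction, while 0.108% were called. In rox1, the differences of these 4 genes lay between −0.24 and 0.06, with 0.0541% of all genes called. The interaction, which is how far rox1/rox2 lay above the sum of both single effects, was 1.93 ± 0.424 for HSC82, 2.17 ± 0.360 for AHA1, 1.95 ± 0.324 for STI1 and 1.27 ± 0.330 for SSA2 (0.397% of all genes were called). The SSA2 values against WT and in the interaction share the untreated WT libraries with the comparison that chose the gene, and are a description.

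Among the other genes of the HSP90 and HSP70 lists, CPR6, SSE2, SIS1 and APJ1 were called higher in rox1/rox2 than in rox2. CPR6, an HSP90-binding prolyl isomerase in S. cerevisiae, had 341 and 345 CPM in rox1/rox2, against 79.1, 78.0 and 100.3 CPM in rox2 (log2 difference 2.00 ± 0.305, edgeR adjusted p = 0.00396). SSE2, a nucleotide exchange factor of HSP70, had 642 and 713 CPM in rox1/rox2, against 132, 166 and 189 CPM in rox2 (2.06 ± 0.293, adjusted p = 0.00234). SIS1, an essential J protein of HSP70, had 155 and 125 CPM in rox1/rox2, against 66.2, 56.5 and 52.3 CPM in rox2 (1.26 ± 0.171, adjusted p = 0.00215). For APJ1, another J protein, the log2 difference was 0.87 ± 0.181 (adjusted p = 0.0273). In CPR6, SSE2 and SIS1, both rox1/rox2 libraries were above all rox2 libraries, as for 24.7% of all genes. All 4 stayed called without the rox2 pair of libraries, at 2.13 for CPR6 (adjusted p = 0.00518), 2.18 for SSE2 (0.00474), 1.19 for SIS1 (0.00235) and 0.76 for APJ1 (0.0412).

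The lists did not share 1 direction. SSB1 and SSB2, the HSP70s that bind nascent chains on the ribosome, had differences of −1.01 ± 0.501 (edgeR adjusted p = 0.269) and −0.77 ± 0.352 (adjusted p = 0.238) in rox1/rox2 against rox2. Their partner SSZ1 had −0.81 ± 0.388 (adjusted p = 0.258), and the HSP90 phosphatase gene PPT1 had −0.40 ± 0.244 (adjusted p = 0.354). None of these values was called, and SSB1 and SSB2 are paralogs whose counts may miss shared reads.

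The wider set was 6 lists of chaperone genes: the HSP90 machine, cytosolic HSP70 and J proteins, the disaggregase with small heat shock proteins and sorting factors, and the mitochondrial, ER, and CCT and prefoldin chaperones. Among the 75 of these genes that were tested, 12 rose and none fell in rox1/rox2 against rox2, with a list median of 0.17 against −0.01 over all genes, of which 1.26% rose. The count was 6 without rox1/rox2 replicate 1 or replicate 2, 8 without rox2 replicate 1, and 21 with scaling by total counts. The rises covered 4 of 13 genes of the HSP90 machine and 4 of 19 cytosolic HSP70 and J proteins. They also included the mitochondrial chaperones MDJ1 (1.33 ± 0.217) and HSP78 (0.98 ± 0.207), and the ER chaperones KAR2 (0.92 ± 0.196) and MPD1 (0.69 ± 0.144). Without the 7 genes, 8 of 68 rose. Of 16 genes that Hsf1 drives in S. cerevisiae, 8 rose and their median was 1.12, while none of the 17 general stress genes of Msn2 and Msn4 was called. The 8 include HSC82, AHA1, STI1 and SSA2, and the count was 5 without rox1/rox2 replicate 1 and 8 without the rox2 pair of libraries with most reads outside genes. HSP104, HSP26 and HSP10 were not called in rox1/rox2 against rox2, with log2 differences of 0.55 ± 0.360 (edgeR adjusted p = 0.387), 1.93 ± 0.695 (adjusted p = 0.157) and 0.14 ± 0.186 (adjusted p = 0.684).

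**Figure D2:**
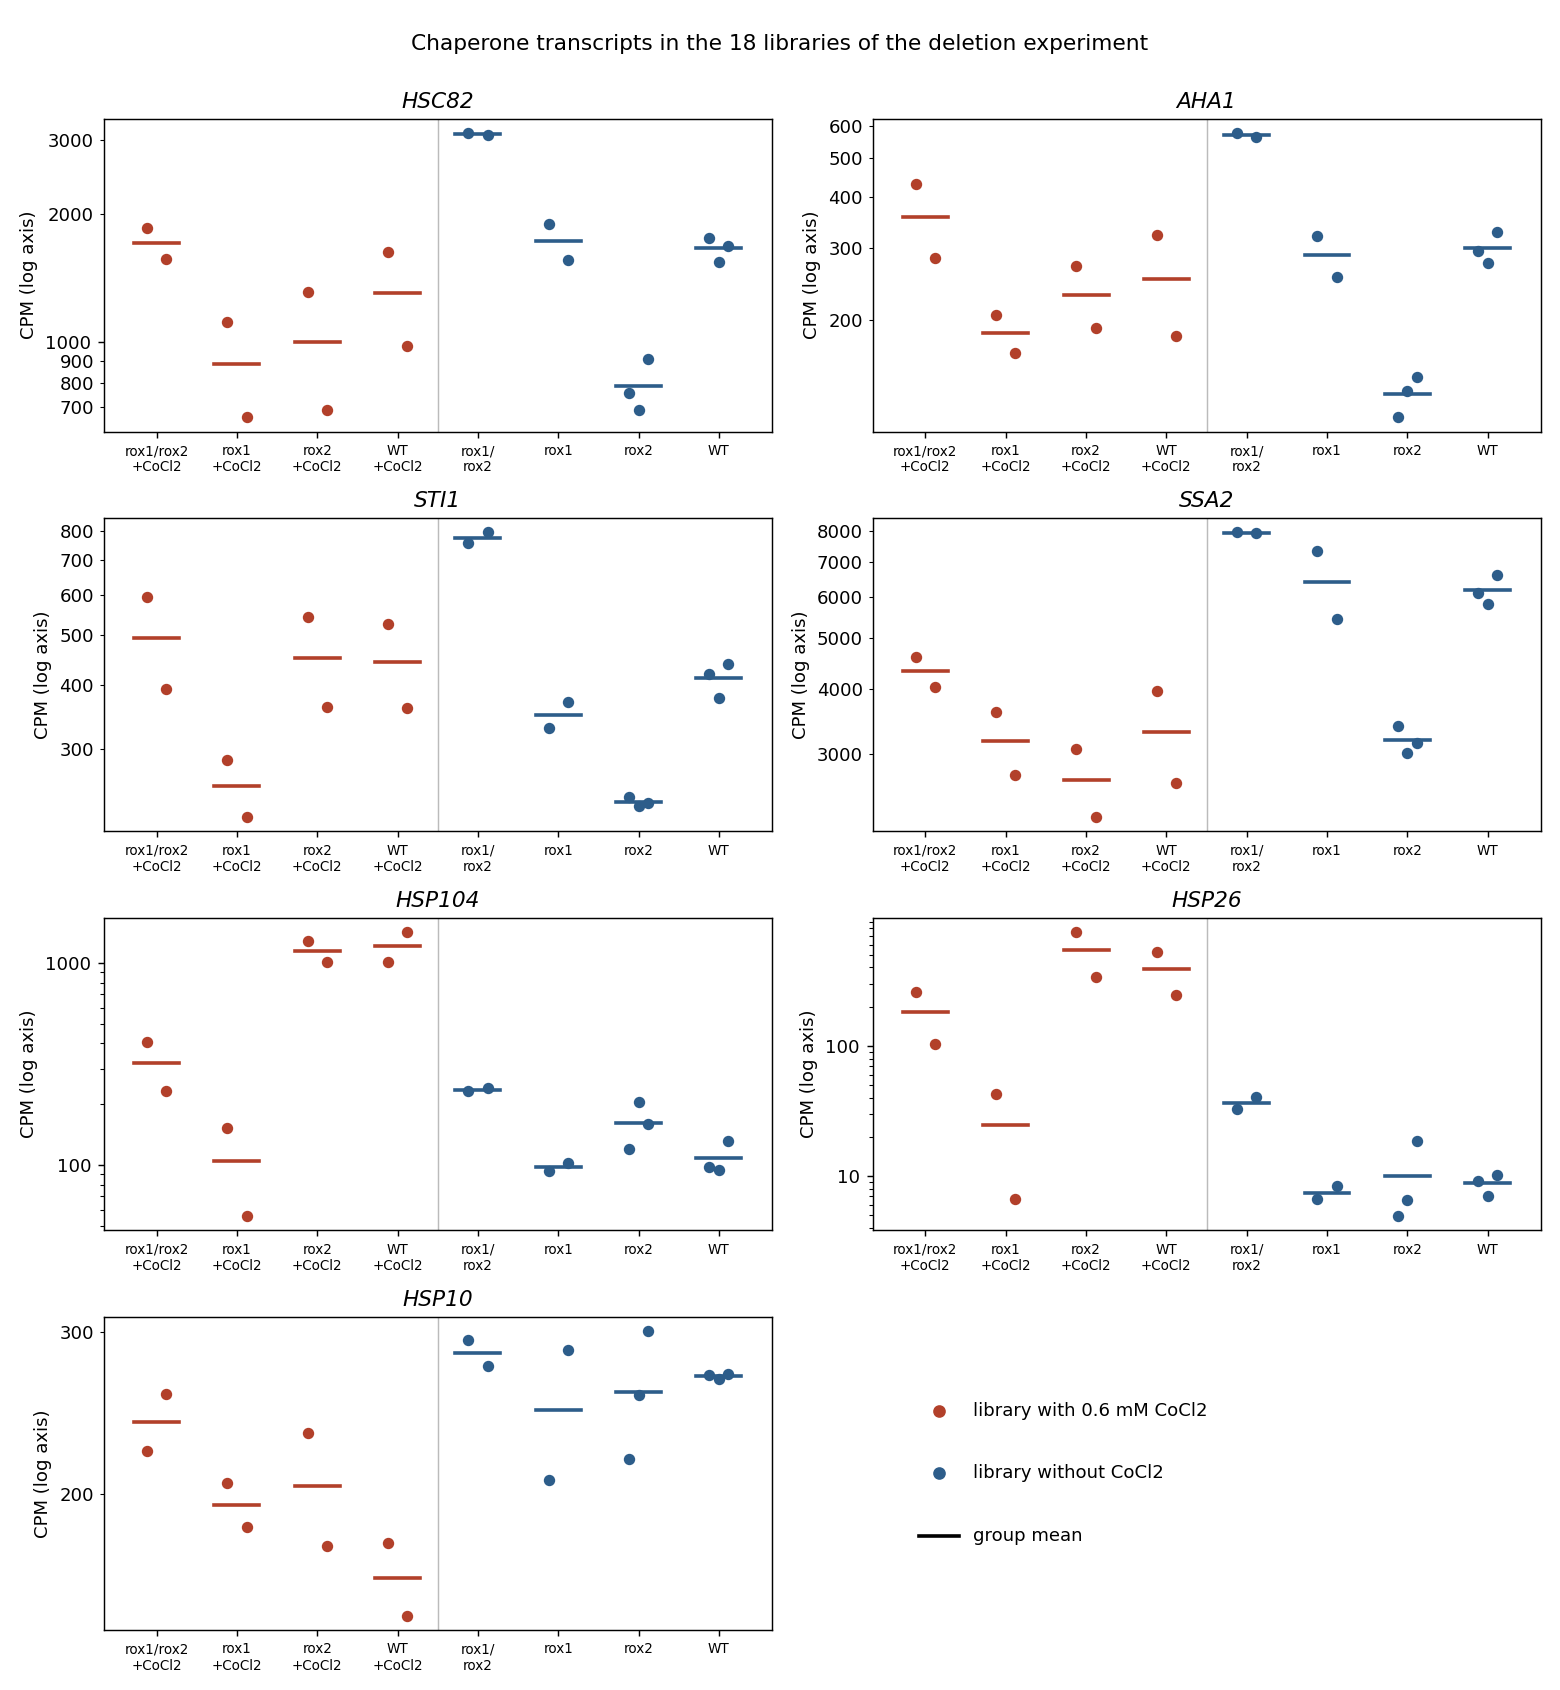
CPM on a log axis of the 7 genes in each of the 18 libraries of the deletion experiment (points) with group means (lines), groups with 0.6 mM CoCl2 in red on the left and untreated groups in blue on the right. HSC82, AHA1, STI1 and SSA2 are highest in untreated rox1/rox2, and HSP104 and HSP26 are highest in rox2 and WT with CoCl2.

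CoCl2 gave a different pattern for the disaggregase and the small heat shock protein. HSP104 had 1008 and 1428 CPM in WT with CoCl2, against 97.5, 94.9 and 132 CPM in WT without it, a log2 change of 3.49 ± 0.373. In rox2, it had 1290.6 and 1009.5 CPM with CoCl2, against 120.0, 205 and 160.5 CPM without it (2.83 ± 0.366, edgeR adjusted p = 5.88e-05). The fitted level was 7.11-fold higher with CoCl2 in rox2 and 11.3-fold higher in WT. The libraries did not overlap in either strain, and the share of all genes for which this held is not given here. Without the rox2 pair of libraries with most reads outside genes, the change in rox2 was 2.63 (adjusted p = 0.00206).

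In rox1, HSP104 had 152 and 55.8 CPM with CoCl2, against 93.7 and 103 CPM without it (0.08 ± 0.399, edgeR adjusted p = 0.931). In rox1/rox2, it had 404 and 232 CPM with CoCl2, against 232 and 241 CPM without it (0.43 ± 0.398, adjusted p = 0.523). In both strains that lack ROX1, the libraries with and without CoCl2 overlapped. The change turned to −0.81 in rox1 without rox1 CoCl2 replicate 1 and to −0.03 in rox1/rox2 without rox1/rox2 CoCl2 replicate 1, neither called. The 95% intervals of the log2 change ran from −0.70 to 0.87 in rox1 and from −0.35 to 1.21 in rox1/rox2.

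HSP26 had 528 and 245 CPM in WT with CoCl2, against 9.15, 7.10 and 10.2 CPM in WT without it, a log2 change of 5.45 ± 0.727. In rox2, it had 752 and 339 CPM with CoCl2, against 4.93, 6.59 and 18.7 CPM without it (5.82 ± 0.743, edgeR adjusted p = 5.2e-05). The 18.7 CPM came from rox2 replicate 3. HSP26 stayed called in rox2 under every alternative run, with adjusted p of at most 0.00279, and was 5.88 without the rox2 pair of libraries.

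In rox1, HSP26 had 43.0 and 6.64 CPM with CoCl2, against 6.62 and 8.36 CPM without it (1.71 ± 0.787, edgeR adjusted p = 0.205). Only replicate 1 stood above the untreated libraries, and without it the change was −0.18. In rox1/rox2, it had 260.4 and 103 CPM with CoCl2, against 32.9 and 40.5 CPM without it (2.31 ± 0.748, adjusted p = 0.0808). These groups did not overlap, which held for 32.4% of all genes in that direction, and the value passed the test without the rox2 pair of libraries with most reads outside genes (adjusted p = 0.0458) and in DESeq2 (adjusted p = 0.0196). Without CoCl2, HSP26 was also above the other strains in rox1/rox2, with a log2 difference from WT of 2.05 ± 0.684 that was not called.

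**Figure D3:**
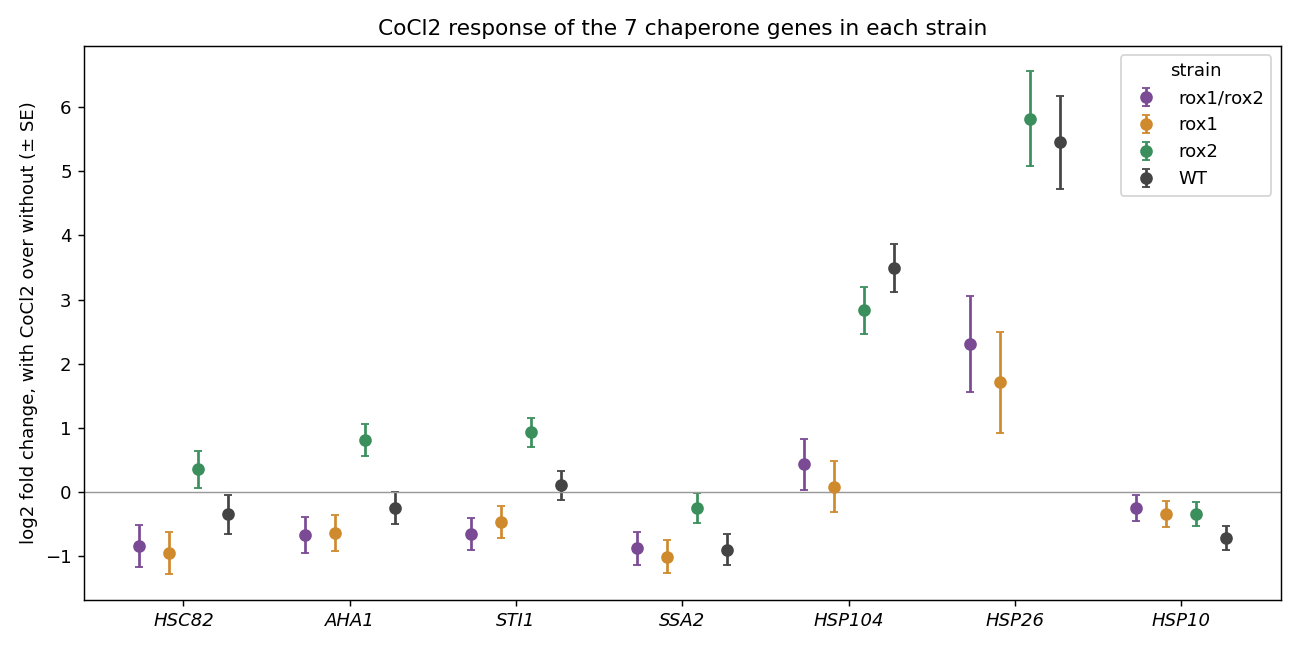
Log2 fold change with CoCl2 over without it (vertical axis, points with standard errors) for the 7 genes, in rox1/rox2, rox1, rox2 and WT. HSP104 and HSP26 lie at 2.83 to 5.82 in rox2 and WT and at 0.08 to 2.31 in rox1 and rox1/rox2, while SSA2 and HSP10 lie below 0 in all 4 strains.

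The difference between strains was tested as an interaction. The CoCl2 response of HSP104 was lower in rox1 than in rox2 by −2.75 ± 0.543 on the log2 scale (edgeR adjusted p = 0.0253), and that of HSP26 by −4.11 ± 1.052 (adjusted p = 0.0386). In that comparison, added after the data were seen, 5.61% of all genes were called. Without the rox2 pair of libraries, the values were −2.55 for HSP104 (adjusted p = 0.0341) and −4.18 for HSP26 (adjusted p = 0.0364). The HSP104 call was lost with only the groups compared in the fit (adjusted p = 0.118) and without rox1 replicate 1 (adjusted p = 0.0891), rox1 CoCl2 replicate 2 (0.131), rox2 replicate 1 (0.065) or rox2 CoCl2 replicate 1 (0.0903), with values between −2.84 and −2.19. The HSP26 call was lost without any 1 of rox1 replicate 1 (adjusted p = 0.12), rox1 replicate 2 (0.0592), rox1 CoCl2 replicate 2 (0.15), rox2 replicate 1 (0.0943), rox2 replicate 2 (0.074) or rox2 CoCl2 replicate 1 (0.143), and also with total counts (0.062) or only the groups compared (0.135). The response of rox1/rox2 was lower than that of rox2 by −2.40 ± 0.540 for HSP104 (adjusted p = 0.0707) and −3.51 ± 1.002 for HSP26 (adjusted p = 0.143), which were not called (0.234% of all genes called). The difference of rox2 from WT in this response was −0.67 ± 0.513 for HSP104 and 0.37 ± 0.962 for HSP26, with 95% intervals of −1.67 to 0.34 and −1.52 to 2.25 (0.0902% of all genes called). Against WT, the response of HSP104 differed by −3.41 ± 0.546 in rox1 (4.71% of all genes called) and by −3.06 ± 0.543 in rox1/rox2 (0.397% called).

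Levels with CoCl2 were also compared between strains. HSP104 was higher in rox1/rox2 than in rox1 by 1.61 ± 0.407 (edgeR adjusted p = 0.0447; 4.4% of all genes called) and lower in rox1/rox2 than in rox2 by −1.85 ± 0.409 (adjusted p = 0.0119; 15.8% called). HSP26 was higher in rox1/rox2 than in rox1 by 2.88 ± 0.763 (adjusted p = 0.0478), and its difference of −1.58 ± 0.717 from rox2 did not pass (adjusted p = 0.145). The calls against rox1 were lost with only the groups compared (adjusted p = 0.243 for both genes), without rox1 CoCl2 replicate 2 (0.288 for both genes) or without rox1/rox2 CoCl2 replicate 1 (0.434 for HSP104 and 0.436 for HSP26). The HSP104 call against rox2 was lost without rox1/rox2 CoCl2 replicate 2 (adjusted p = 0.0785) and with only the groups compared (0.185). STI1 was higher in rox1/rox2 than in rox1 by 0.96 ± 0.250 (adjusted p = 0.0461) and lower in rox1 than in WT by −0.81 ± 0.250 (adjusted p = 0.0396; 17.6% called). STI1 lost the first call without rox1 CoCl2 replicate 1 (adjusted p = 0.0564), rox1 CoCl2 replicate 2 (0.307) or rox1/rox2 CoCl2 replicate 1 (0.476) and with only the groups compared (0.243), and the second without rox1 CoCl2 replicate 2 (0.304) or WT CoCl2 replicate 1 (0.361), with total counts (0.063) and with only the groups compared (0.199).

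For HSC82, AHA1 and STI1, the log2 changes with CoCl2 lay between −0.96 and 0.93 over the 4 strains. With CoCl2, HSC82 had 1855 and 1568 CPM in rox1/rox2, 1112 and 662 CPM in rox1, 1309.6 and 690.7 CPM in rox2, and 1626 and 977 CPM in WT. AHA1 had 432 and 285 CPM in rox1/rox2, 206 and 166 CPM in rox1, 271 and 191 CPM in rox2, and 323 and 183 CPM in WT. STI1 had 594 and 392 CPM in rox1/rox2, 286 and 221 CPM in rox1, 543 and 362 CPM in rox2, and 525 and 361 CPM in WT.

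In each of these 4 groups, replicate 1 was above replicate 2 for HSC82, AHA1, STI1, SSA2 and HSP26. The group means of HSC82 were 1712, 887, 1000.2 and 1302 CPM in rox1/rox2, rox1, rox2 and WT with CoCl2, against 3096, 1726, 784 and 1661 CPM without it. The log2 change with CoCl2 in rox2 was 0.35 ± 0.295 for HSC82, 0.81 ± 0.249 for AHA1 and 0.93 ± 0.224 for STI1. In the other strains it lay between −0.96 and −0.35 for HSC82, between −0.67 and −0.25 for AHA1, and between −0.65 and 0.10 for STI1. AHA1 and STI1 each had a log2 change of 0.61 in rox2 without the pair of libraries with most reads outside genes, and HSC82 one of −0.06. Without 1 library the change of HSC82 in rox2 turned to −0.18 (rox2 CoCl2 replicate 1), that of AHA1 in WT to 0.11 (WT CoCl2 replicate 2) and that of STI1 in WT to −0.19 (WT CoCl2 replicate 1). With total counts, AHA1 in WT was at 0.03. The untreated libraries of all 4 strains entered the comparisons taken to have chosen these genes, so these changes have no p-value.

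SSA2 had lower means with CoCl2 in all 4 strains. It had 4608 and 4027 CPM with CoCl2 in rox1/rox2, 3606.5 and 2743 CPM in rox1, 3074 and 2281 CPM in rox2, and 3969 and 2641 CPM in WT. All CoCl2 libraries of rox1/rox2, rox1 and WT were below the untreated libraries of the same strain, while those of rox2 overlapped. Over all genes, 29.4% in rox1/rox2, 25.3% in rox1 and 37.8% in WT were lower without overlap. The log2 change was −0.90 ± 0.239 in WT. SSA2 fell by 1.01 ± 0.257 in rox1 (edgeR adjusted p = 0.0272), and the changes of −0.88 ± 0.256 in rox1/rox2 (adjusted p = 0.0586) and −0.25 ± 0.234 in rox2 (adjusted p = 0.381) were not called. The call in rox1 was lost without rox1 replicate 1 (adjusted p = 0.25), rox1 CoCl2 replicate 1 (0.0666) or rox1 CoCl2 replicate 2 (0.164), and with scaling by total counts (−0.81, adjusted p = 0.0885) or only the groups compared (adjusted p = 0.237). In rox1/rox2, the change passed the test without the rox2 pair of libraries with most reads outside genes (adjusted p = 0.0442) and in DESeq2 (adjusted p = 0.00383).

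HSP10, the mitochondrial co-chaperonin, had 177 and 148 CPM in WT with CoCl2, against 269, 267 and 269.7 CPM in WT without it. Both CoCl2 libraries were below all 3 untreated ones, as for 37.8% of all genes, and HSP10 fell by 0.72 ± 0.190 (edgeR adjusted p = 0.00702). In CoCl2 against untreated WT, 47% of all genes were called, 27.7% higher and 19.4% lower. The call was lost with total counts (−0.47, adjusted p = 0.126) and without WT CoCl2 replicate 2 (−0.60, adjusted p = 0.055). In the other strains the log2 change of HSP10 was −0.25 ± 0.204 in rox1/rox2 (adjusted p = 0.475), −0.34 ± 0.204 in rox1 (adjusted p = 0.341) and −0.34 ± 0.188 in rox2 (adjusted p = 0.147). HSP10 was not called between any pair of untreated strains compared, with group means of 284 CPM in rox1/rox2, 247 in rox1, 258 in rox2 and 269 in WT. Its partner HSP60 had 1047 and 702 CPM in WT with CoCl2, against 1610.5, 1581 and 1791 CPM without it, and fell by 0.93 ± 0.248 (adjusted p = 0.00784).

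The wider chaperone lists held calls in both directions with CoCl2 in rox2 and WT and few calls in the strains that lack ROX1. The same held for all genes, whose shares are given beside the counts. Of 75 tested genes of the 6 lists, 1 rose and 2 fell in rox1/rox2 (5.79% of all genes called, 4.38% higher and 1.41% lower). In rox1, 4 rose and 2 fell (8.06% called, 4.85% higher and 3.21% lower). In rox2, 19 rose and 21 fell (48.1% called, 26.3% higher and 21.8% lower). In WT, 11 rose and 23 fell (47% called, 27.7% higher and 19.4% lower), including HSP104, HSP26 and SSA2, which were chosen there. The 19 in rox2 include HSP104, HSP26, AHA1 and STI1, and the choice of the last 2 was taken to rest on a comparison with the same untreated rox2 libraries. Without the 7 genes, 15 of 68 rose and 21 fell in rox2, and 9 rose and 21 fell in WT. Scaling by total counts moved the median of all genes up by 0.142 in rox1/rox2, 0.174 in rox1, 0.236 in rox2 and 0.243 in WT. With it, 2 rose and 1 fell in rox1/rox2, 4 rose and none fell in rox1, 22 rose and 11 fell in rox2, and 14 rose and 10 fell in WT. The difference between strains in these counts was not tested. The counts rested on few libraries: 40 called genes in rox2 became 21 without rox2 CoCl2 replicate 1, and 34 in WT became 20 without WT CoCl2 replicate 1. In rox1, 6 became 0 without rox1 replicate 1, 14 without rox1 replicate 2 and 2 without either CoCl2 library. In rox1/rox2, 3 became 0 without rox1/rox2 replicate 1, 1 without rox1/rox2 replicate 2 or rox1/rox2 CoCl2 replicate 1, and 7 without the rox2 pair of libraries with most reads outside genes.

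The list of the disaggregase, small heat shock proteins and sorting factors had 6 tested genes, of which none rose with CoCl2 in rox1/rox2, 2 in rox1, 6 in rox2 and 5 in WT. The last 2 counts include HSP104 and HSP26, which were chosen in WT. Over all genes, 4.38% were called higher in rox1/rox2, 4.85% in rox1, 26.3% in rox2 and 27.7% in WT. HSP42, another small heat shock protein, had 430.2 and 197 CPM in rox1/rox2, 109 and 45.7 CPM in rox1, 544 and 308 CPM in rox2, and 386 and 304 CPM in WT with CoCl2. It rose by 2.72 ± 0.391 in rox2 (edgeR adjusted p = 0.000127) and by 2.76 ± 0.391 in WT (adjusted p = 0.000101). Its log2 change was 0.05 ± 0.428 in rox1 and 0.92 ± 0.428 in rox1/rox2, neither called. BTN2, a sorting factor for misfolded proteins, rose in rox1 as well, by 1.21 ± 0.309 (adjusted p = 0.0276). HSP12, of the same list, rose by 0.98 ± 0.281 in rox1 (adjusted p = 0.0471) and by 1.77 ± 0.251 in rox2 (adjusted p = 0.000116). The rox1 calls of BTN2 and HSP12 were lost with only the groups compared in the fit and without rox1 replicate 1. The HSP12 changes of 0.96 ± 0.281 in rox1/rox2 (adjusted p = 0.0586) and 0.44 ± 0.252 in WT (adjusted p = 0.161) were not called. The list median was 0.67 in rox1/rox2, 0.58 in rox1, 2.37 in rox2 and 2.29 in WT, against medians of 0, 0.04, −0.01 and 0 over all genes. Without the rox2 pair of libraries with most reads outside genes, the list in rox2 still had 6 genes called.

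**Figure D4:**
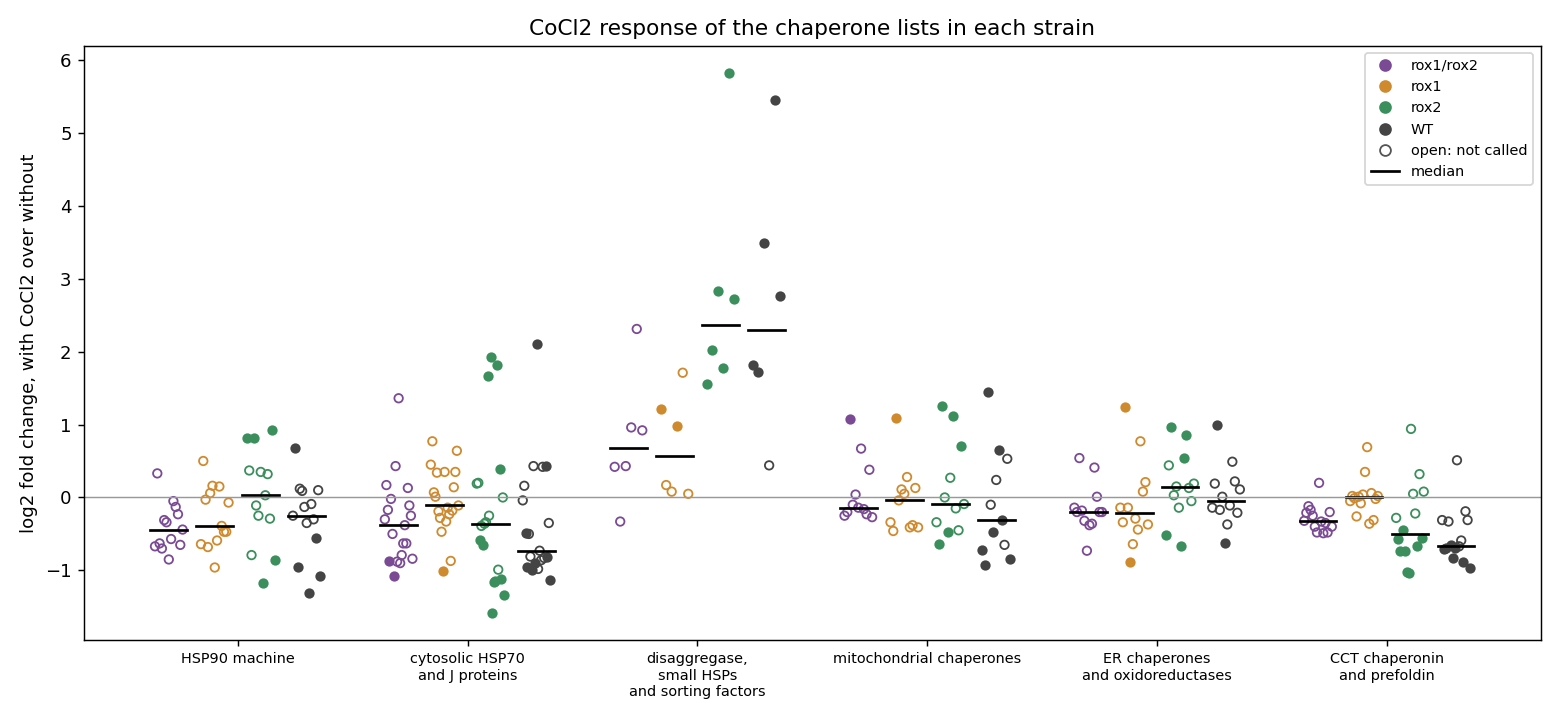
Log2 fold change with CoCl2 over without it (vertical axis) of the genes of 6 chaperone lists in rox1/rox2, rox1, rox2 and WT, filled where called and open where not, with the list median as a black line. The disaggregase and small heat shock protein list has medians of 2.37 in rox2 and 2.29 in WT and of 0.58 in rox1 and 0.67 in rox1/rox2.

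Other chaperone lists held falls. Over all genes, 1.41% were called lower in rox1/rox2, 3.21% in rox1, 21.8% in rox2 and 19.4% in WT. CCT chaperonin and prefoldin, which fold actin and tubulin, had none of 14 genes called in rox1/rox2 or rox1, 8 lower in rox2 and 7 lower in WT. CCT7 fell by 1.02 ± 0.211 in rox2 (edgeR adjusted p = 0.00178) and by 0.83 ± 0.210 in WT (adjusted p = 0.00566). The WT count was 2 without WT CoCl2 replicate 1. Without the rox2 pair of libraries with most reads outside genes, 5 of these genes were lower and 3 higher in rox2 (14.6% of all genes called lower). Among cytosolic HSP70 and J proteins, 2 fell in rox1/rox2 and 1 in rox1, 7 fell and 4 rose in rox2, and 6 fell and 2 rose in WT. SSA3, an inducible HSP70, rose by 1.92 ± 0.478 in rox2 (adjusted p = 0.00528) and 2.11 ± 0.464 in WT (adjusted p = 0.00227), and SIS1 fell by 1.08 ± 0.191 in rox1/rox2 (adjusted p = 0.00535) and 1.00 ± 0.180 in WT (adjusted p = 0.00056). The SIS1 call in rox1/rox2 was lost with only the groups compared in the fit and without rox1/rox2 replicate 1. The HSP90 machine had no call in rox1/rox2 or rox1, 3 higher and 2 lower in rox2, and 1 higher and 4 lower in WT. The 3 were CPR6, AHA1 and STI1, and only CPR6 was not chosen on a comparison with the same untreated rox2 libraries. Its member CDC37, which brings kinases to HSP90, rose by 0.68 ± 0.147 in WT (adjusted p = 0.00204), and PIH1, a subunit of the R2TP complex, fell by 1.31 ± 0.186 (adjusted p = 0.000101).

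Of 11 mitochondrial chaperones, 1 rose in rox1/rox2, 1 rose in rox1, 3 rose and 2 fell in rox2, and 2 rose and 5 fell in WT. Of 12 ER chaperones and oxidoreductases, none was called in rox1/rox2, 1 rose and 1 fell in rox1, 3 rose and 2 fell in rox2, and 1 rose and 1 fell in WT. Over all genes, 5.79% were called in rox1/rox2, 8.06% in rox1, 48.1% in rox2 and 47% in WT. The 2 lists were not tested against these shares. HSP78, the mitochondrial counterpart of HSP104, rose with CoCl2 in every strain, by 1.07 ± 0.232 in rox1/rox2 (edgeR adjusted p = 0.0173), 1.09 ± 0.232 in rox1 (adjusted p = 0.00977), 1.26 ± 0.207 in rox2 (adjusted p = 0.000355) and 1.45 ± 0.206 in WT (adjusted p = 0.000102). It had 452 and 464 CPM in rox1/rox2, 451 and 312 CPM in rox1, 295 and 234 CPM in rox2, and 429 and 358 CPM in WT with CoCl2. Without CoCl2, it had 215 and 222 CPM in rox1/rox2, 166 and 192 CPM in rox1, 102, 142 and 87.3 CPM in rox2, and 149, 139 and 144 CPM in WT. No untreated library of a strain reached its CoCl2 libraries, as for 32.4% of all genes in that direction in rox1/rox2. That share is not given here for the other strains. The HSP78 calls in rox1/rox2 and rox1 were both lost with only the groups compared in the fit. They were also lost without rox1/rox2 replicate 1 and without rox1 replicate 1, respectively.

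The general stress genes that Msn2 and Msn4 drive in S. cerevisiae, a list that includes HSP104 and HSP26, rose with CoCl2 in 3 of 17 genes in rox1/rox2, 2 in rox1, 15 in rox2 and 16 in WT, and none fell. Their medians were 1.22, 0.34, 1.77 and 2.11. The shares of all genes called higher were 4.38% in rox1/rox2, 4.85% in rox1, 26.3% in rox2 and 27.7% in WT. Of the 16 Hsf1 targets, 1 rose and 2 fell in rox1/rox2, 2 rose and 1 fell in rox1, 8 rose and none fell in rox2, AHA1 and STI1 among them, and 5 rose and 3 fell in WT. The WT counts include HSP104 and SSA2, which were chosen there. The rox2 count of general stress genes was 7 without the pair of libraries with most reads outside genes (20.3% of all genes called higher), and the WT count was 12 without WT CoCl2 replicate 1. With CoCl2, 12 of the 17 were lower in rox1 than in WT (12.9% of all genes called lower), among them HXK1, a hexokinase gene, by −4.95 ± 0.758 (edgeR adjusted p = 0.00138). These 12, and the 16 that rose in WT, include HSP104 and HSP26, which were chosen for CoCl2 in WT. In rox1/rox2 against rox1 with CoCl2, 10 of the 17 were higher and none lower (2.96% of all genes called higher). Over the alternatives run, the count of 12 ranged between 2, with only the groups compared, and 14, and the count of 10 between 0, with only the groups compared, and 15. The 3 genes in rox1/rox2 ranged between 0, with only the groups compared, and 9, and the 8 Hsf1 targets in rox2 between 5, without rox2 CoCl2 replicate 1, and 8.

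Of the regulator genes themselves, HSF1 fell with CoCl2 by 0.61 ± 0.166 in rox1 (edgeR adjusted p = 0.0375), 1.01 ± 0.157 in rox2 (adjusted p = 0.000226) and 0.93 ± 0.156 in WT (adjusted p = 0.000335), and its change in rox1/rox2 was −0.29 ± 0.167 (adjusted p = 0.301). MSN2 rose by 0.77 ± 0.169 in rox2 (adjusted p = 0.00252) and 0.95 ± 0.168 in WT (adjusted p = 0.000487). MSN4 rose by 0.82 ± 0.276 in rox2 (adjusted p = 0.0257) and 1.25 ± 0.273 in WT (adjusted p = 0.00212). In rox1, MSN2 and MSN4 had log2 changes of 0.11 ± 0.185 and 0.09 ± 0.303, and in rox1/rox2 of 0.60 ± 0.188 and 0.83 ± 0.305, none called.

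At 1% oxygen, the log2 changes of the 7 genes lay between −0.43 and −0.08. HSC82 had 2080.2, 1657.5 and 1954 CPM at 1% oxygen, against 2689, 2146 and 2815 CPM at 21% oxygen, a log2 change of −0.43 ± 0.109. HSP10 had 478, 495 and 475 CPM at 1% oxygen, against 609, 635 and 681 CPM at 21% oxygen (−0.41 ± 0.055). The groups did not overlap for either gene, as for 13.8% of all genes in that direction.

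AHA1 had 461, 506 and 476 CPM at 1% oxygen, against 551, 599.8 and 587 CPM at 21% oxygen. It fell by 0.27 ± 0.056 (edgeR adjusted p = 0.0208), or 1.20-fold, a call that was lost without hypoxia replicate 1 (adjusted p = 0.0917) or replicate 3 (adjusted p = 0.0711). STI1 had 903, 873 and 926 CPM at 1% oxygen, against 995, 1004 and 1054 CPM at 21% oxygen (−0.18 ± 0.050, adjusted p = 0.0701). SSA2 had 7237, 6938 and 7540.3 CPM at 1% oxygen, against 7943, 7910.5 and 8532.5 CPM at 21% oxygen, HSP104 had 148, 152 and 144 CPM, against 157, 162 and 165 CPM, and HSP26 had 53.2, 46.8 and 51.7 CPM, against 50.5, 48.8 and 61.1 CPM. The libraries did not overlap for STI1, SSA2 (−0.17 ± 0.059, adjusted p = 0.13) and HSP104 (−0.12 ± 0.047, adjusted p = 0.161), and did for HSP26 (−0.08 ± 0.094, adjusted p = 0.673).

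All 7 estimates were thus below 0 (HSP26 was at 0.03 without normoxia replicate 3), and 3 genes were called lower, of which HSC82 and HSP10 were chosen for it. Of all 5559 genes tested, 6.49% were called, 2.64% higher and 3.85% lower. The hypoxia p-values above come from a fit without a replicate block. Replicate numbers paired the libraries of the oxygen experiment, and with the replicate block STI1 (edgeR adjusted p = 0.0181) and SSA2 (adjusted p = 0.0179) were called lower too.

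**Figure D5:**
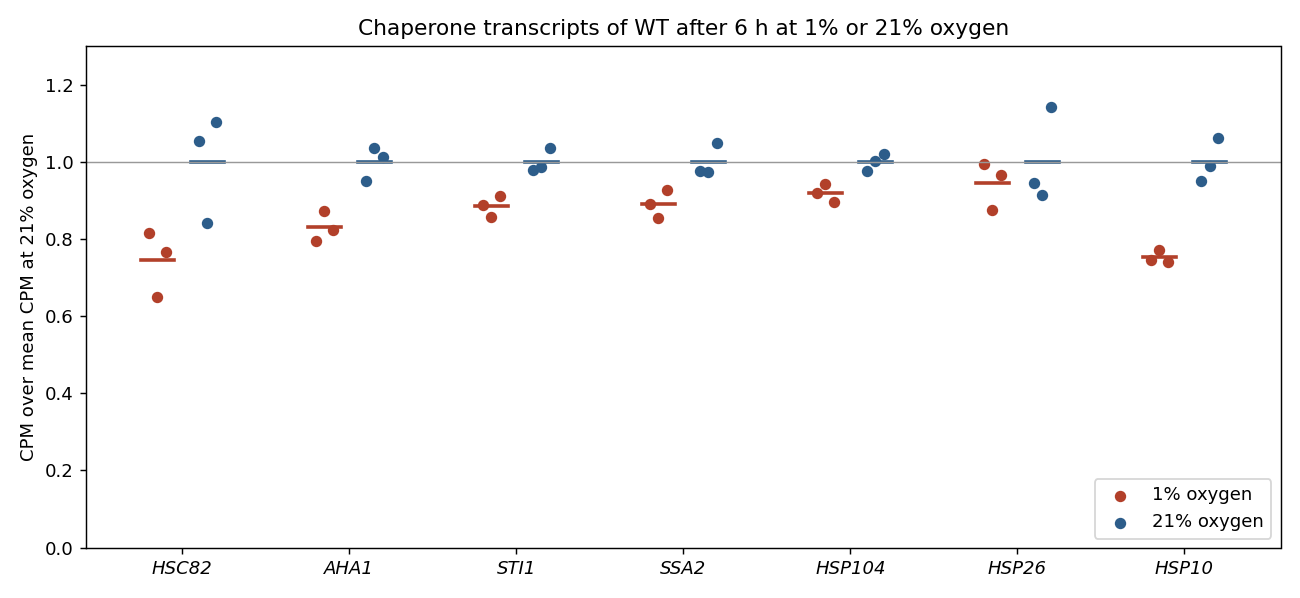
CPM of the 7 genes in each WT library divided by the mean at 21% oxygen (vertical axis), with the 3 libraries at 1% oxygen in red to the left of the 3 at 21% oxygen in blue, and group means as lines. HSC82, AHA1 and HSP10 show the lowest means at 1% oxygen, and HSP26 overlaps.

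Of the 75 listed chaperone genes tested, 9 fell and none rose at 1% oxygen. Besides HSC82, AHA1 and HSP10 they were CPR6 (−0.34 ± 0.048), SSC1 (−0.35 ± 0.053), which is the mitochondrial HSP70, its J protein MDJ1 (−0.33 ± 0.056), HSP60 (−0.22 ± 0.052), FES1 (−0.27 ± 0.057) and SSE2 (−0.25 ± 0.053). They were 3 of the HSP90 machine, 2 of the cytosolic HSP70 and J proteins and 4 of the mitochondrial chaperones, and no gene of the other 3 lists was called. The count without single libraries was between 4 and 11: it was 4 without hypoxia replicate 1, and 5 without hypoxia replicate 2 or normoxia replicate 1. With the replicate block, 16 fell and 1 rose, against 7.9% and 5.43% of all genes. Of the 16 Hsf1 targets, 6 fell, or 2 without hypoxia replicate 1 and 10 in the alternative with most calls, and the median of the 16 was −0.22. The 6 include AHA1 and HSC82, and HSC82 was chosen for hypoxia. Of the 17 general stress genes, GLK1, a glucokinase gene, rose by 0.64 and CTT1, the cytosolic catalase gene, fell by 1.32. HSF1, MSN2 and MSN4 had log2 changes of 0.06 ± 0.059, 0.01 ± 0.056 and 0.05 ± 0.051, none called.

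The profiles of the 7 genes over the 8 groups of the deletion experiment were compared with those of other genes. Likeness was measured as the root mean square difference between the centred log2 CPM profiles of 2 genes (a pseudocount of 1 CPM was added), over 4842 genes with a mean log2 CPM of 4 or more. The genes nearest to HSC82, whose profile spanned 1.99 on the log2 scale, were ALD6 (0.153), AHA1 (0.168), CPR6 (0.24), SSA2 (0.274) and TUB3 (0.314). STI1 was at 0.334 and HSP10 at 0.534, while HSP104 was at 1.59 and HSP26 at 2.41. The genes nearest to HSP104, whose profile spanned 3.68, were GIP2 (0.348), PIG2 (0.369), NCAS0B08610 (0.371), MHO1 (0.38) and NCAS0E00810 (0.388), none of them a listed chaperone, and HSP26 was at 1.08. Among the 5 genes nearest to AHA1, STI1, SSA2, HSP26 and HSP10, listed chaperones numbered 3, 2, 3, 0 and 1. These distances describe 8 group means that share libraries. The choice of HSC82, AHA1 and STI1 was taken to rest on untreated groups that enter these profiles. The nearness of these genes to each other therefore follows in part from the choice. The share of listed chaperones among the 4842 genes is not given here.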

How the data were processed

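Strand-specific RNA-seq of N. castellii was deposited as raw counts per gene or exon. TopHat2 was the aligner and HTSeq 0.6.0 the counter, per the submitters' processing notes. The build and annotation are not given in the sources used here, and nor is how counting treated strand. The deletion experiment had single-end reads and the oxygen experiment paired-end reads from another provider, per the labels' protocols, so both were fitted apart. The deposited counts of the deletion experiment, 5852 exon entries, were summed to 5648 genes, and reads that matched several places (17.27 to 42.84 for every 100 counted in genes there) were left out of the counts by the authors. The rox1 CoCl2 libraries had 42.84 and 37.72 such reads per 100, against 17.27 to 27.3 in the other CoCl2 libraries and 20.62 to 38.21 in the untreated ones. A bearing of this on the results was not tested. Symbols were taken from the RefSeq table by locus tag, which held 5589 of the genes. Annotated lengths were used as coding lengths, since 94.6% are multiples of 3. No promoter sequence was analysed here.

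Genes were kept by filterByExpr (minimum count 10), which left 5544 and 5559 genes, scaled by TMM and tested two-sided with edgeR 4.0.16 (glmQLFit, glmQLFTest; R 4.3.3) with 1 mean per group, all 18 libraries of the deletion experiment sharing the spread, and with Benjamini-Hochberg adjustment over all genes. SE was the absolute log2 fold change divided by the square root of F. The fit was tested on simulated data. 21 comparisons were made; the rox2-based interactions, 2 of them, were added after the data were seen. Alternatives were DESeq2 1.42.0, other scalings, no filter, only the groups compared, the replicate block and leaving out libraries. Same-numbered libraries in hypoxia deviated together (r = 0.176, 0.345 and 0.154, each above 0.1), so these numbers were taken as pairs. The main hypoxia fit had no block, and the paired fit was an alternative.

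The 7 genes and the lists, written from knowledge of S. cerevisiae, were chosen with earlier results of these data known. Of 101 listed genes, 93 were in the annotation. Named were the 7 genes, up to 3 called genes of a list in each direction, and HSF1, MSN2 and MSN4. Other listed genes shown with values (HSP42 and HSP12 in all strains, BTN2, HSP78, HSP60 at 1% oxygen) were added after their values were seen. So were TSL1, GPH1, GSY2 and TPS1 in the differences of the CoCl2 response.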

Additional observations from a re-analysis of the deposited data

Results flagged for a closer look

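Differences in the CoCl2 response between strains that passed the test of the interaction are given here as log2 differences. In rox1 against WT, the response was lower for HSP104 (−3.41), HSP42 (−2.71), GLK1 (−3.87), HXK1 (−4.85) and PGM2 (−3.98). It was also lower for TSL1 (−2.09), GPH1 (−2.87), GSY2 (−2.36) and TPS1 (−1.89). In rox1/rox2 against WT, it was lower for HSP104 (−3.06). The HSP104 values share WT libraries with the comparison that chose the gene. They are given as a description, and support nothing about the gene.

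In rox1 against rox2, the response was lower for HSP104 (−2.75), HSP26 (−4.11), HSP42 (−2.67), CUR1 (−1.85), SSE2 (−2.68), SNL1 (−2.13), JEM1 (−1.03), MPD1 (−0.98), TPS1 (−2.09), TSL1 (−1.62), AHA1 (−1.45) and STI1 (−1.40). AHA1 and STI1 share the untreated rox2 libraries with the comparison taken to have chosen them, and both calls were lost without the rox2 pair of libraries with most reads outside genes, at −1.25 for AHA1 and −1.07 for STI1. In rox1/rox2 against rox2, it was lower for CUR1 (−2.36), which had 27.2 and 25.4 CPM in rox1/rox2 with CoCl2, against 154 and 157 CPM in rox2 with CoCl2.

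Without CoCl2, the interaction of both deletions passed the test for AHA1 (2.17), STI1 (1.95) and SIS1 (1.38). The values of AHA1 and STI1 are a description, since the choice of both genes was taken to rest on them.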

How the results depend on the processing

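The 990 values of the 7 genes under alternatives held 867 with the direction and side of the threshold of the reported value, 96 that lost a call, 27 that gained one and 0 called values that turned direction. Another 22 values, called neither before nor after, changed sign, among them HSP104 (−0.81) and HSP26 (−0.18) for CoCl2 in rox1 without rox1 CoCl2 replicate 1. The counts below are of called chaperone genes. CoCl2 in rox1 (6) gave 13 with DESeq2, 0 with only the groups compared and 0 to 14 with 1 library left out. CoCl2 in rox1/rox2 (3) gave 9, 0 and 0 to 4 in the same order, and 7 without the rox2 pair of libraries with most reads outside genes, a choice made after the data were seen. CoCl2 in rox2 (40) gave 23 with only the groups compared and 21 to 44 with 1 library left out, and CoCl2 in WT (34) gave 20 to 32. Hypoxia (9) gave 17 with the replicate block and 4 to 11 with 1 library left out. Of the 7 genes, 3 were called in hypoxia, 5 with the replicate block and 1 to 3 with 1 library left out. Over all deletion experiment comparisons, 29 calls of the 7 genes became 54 with DESeq2 and 19 to 33 with 1 library left out. The 29 include calls in comparisons that chose a gene. Shares of all genes called under these alternatives are not given here, so the counts do not single out the 7 genes. The cause of these shifts was not tested.

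In the deletion experiment the replicate numbers did not pair libraries by the rule used, which groups of 2 libraries could not meet. A block there is therefore not a paired test. Same-numbered CoCl2 libraries deviated together, with r = 0.763 between rox2 and WT, 0.691 between rox1/rox2 and WT and 0.273 between rox1 and WT. Each value is above 0.1, and the main fit did not account for such a shared deviation. With 3 pairs, between untreated rox2 and WT, not every library correlated best with its own number. The replicate block over the whole experiment gave 42 calls of the 7 genes in place of 29, again without the share of all genes. A block over the CoCl2 libraries alone was chosen after the data were seen. With it, HSC82, AHA1, STI1, HSP104 and HSP26 were called higher in rox1/rox2 than in rox1, the last 3 also without it. It also called HSC82 (adjusted p = 0.0348) and SSA2 (0.0345) higher and HSP26 (0.0275) lower in rox1/rox2 than in rox2, while HSP104 in rox1/rox2 against WT, at −2.04, was no longer called. Calls over all genes moved as well with this block. For rox1/rox2 they went from 244 to 1171 against rox1, from 875 to 1006 against rox2 and from 278 to 36 against WT. For CoCl2 in rox1, the numbers correlated at −0.12: a block by number called 1 chaperone gene and the crossed block 3. Scaling by total counts shifted the median of all genes by up to 0.321. The lowest count of the 7 genes in any library was 52.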
